A study of Mus musculus with 4 samples.

Results

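The 9 genes described here encode the surface proteins by which mouse LSK cells are sorted and divided into subsets. LSK cells are bone marrow cells that lack lineage markers and carry SCA-1 and c-KIT. The genes were chosen by name from 10 symbols, *Kit*, *Ly6a*, *Cd34*, *Slamf1*, *Cd48*, *Procr*, *Thy1*, *Flt3*, *Cd27* and *Slamf2*. Of these, 9 have a row among the 18598 listed genes, and *Slamf2* is a RefSeq synonym of *Cd48*, so both names refer to 1 row. RNA was sequenced from sorted LSK cells of C57BL/6 mice about 3 months old, with 5 mice pooled in each library. The 2 *Bptf* cKO libraries came from *Bptf* f/f;*Mx1*-cre mice, in which cre removes exon 2 of *Bptf*, and the 2 control libraries came from *Bptf* f/f littermates without cre. Both groups received pIpC, an interferon inducer that switches on *Mx1*-cre, and cells were taken 10 days after cre induction. *Mx1*-cre acts in interferon-responsive cells of many tissues and not in blood cells alone. Because the controls carry no cre, an effect of cre and an effect of the deletion cannot be told apart.

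c-KIT (*Kit*) is the receptor for stem cell factor, and SCA-1 (*Ly6a*) is a small protein held in the membrane by a GPI anchor. Within LSK cells, long-term stem cells are found among cells with CD150 (*Slamf1*) and EPCR (*Procr*) and low THY1 (*Thy1*), and without CD48, CD34 and FLT3. Multipotent progenitors gain CD48 and CD34, and lymphoid-primed progenitors also carry high FLT3, the receptor for FLT3 ligand. CD27, a TNF receptor family member, is found on most LSK cells. A sort reads proteins, so RNA levels of these genes describe the sorted pool and not the gates themselves.

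The libraries held 24875746 and 14091054 reads on listed genes in the controls and 30134742 and 14104526 in the *Bptf* cKO, in the order of replicates 1 and 2. All levels below are normalized counts, that is, reads divided by 1 size factor per library. The targeted gene *Bptf* stood at 5520 and 5850 in the controls and at 3398 and 3320 in the *Bptf* cKO, a log2 difference of −0.76 (SE 0.090, adjusted p = 0.0439, limma). This call was lost without any 1 of the 4 libraries, with adjusted p from 0.0647 to 0.316. Libraries with replicate number 2 stood apart in both genotypes. They were the shallower pair, and *Xist*, chosen after its values were seen, was at 15675 and 11843 in them against 0.78 and 3.2 in the replicate 1 libraries. The 5 tested sex-linked genes include the Y-linked *Uty* and *Eif2s3y*. Over these 5, the median log2 difference of replicate 2 minus replicate 1 was −1.77 in the controls and −0.92 in the cKO. The sex of the pooled mice was not tested. The summed level of 10 pluripotency genes was 1103 and 1408 in the replicate 2 libraries against 123 and 143 in the others. The labels give the numbers no shared origin, so differences within each number are printed beside those of the 9 genes as differences of 2 libraries with no test. Fits with the replicate number as a block are given in the closing section. The cause of these library differences was not tested.

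Sequences are shown for the promoters of a pair of genes from the stem cell side and a pair from the progenitor side, which carry the comparison described below. They come from RefSeq on GRCm38.p6, cover 250 bases before to 50 after the gene start, and are written 5′ to 3′ on the gene's strand. Capitals mark matches on either strand to letters of 5 motifs. For AP-1 these were TGANTCA. Factors of the GATA family were searched as AGATAA or TGATAA. For ETS factors the letters CGGAAG were used. RUNX matches were to TGTGGT. The E-box was written CAGNTG. A match is a description of the letters and not of binding. The *Slamf1* window is chr1:171766882-171767181 on the plus strand, the *Procr* window chr2:155750967-155751266 on the plus strand, the *Cd48* window chr1:171681742-171682041 on the plus strand and the *Flt3* window chr5:147400440-147400739 on the minus strand.
Slamf1: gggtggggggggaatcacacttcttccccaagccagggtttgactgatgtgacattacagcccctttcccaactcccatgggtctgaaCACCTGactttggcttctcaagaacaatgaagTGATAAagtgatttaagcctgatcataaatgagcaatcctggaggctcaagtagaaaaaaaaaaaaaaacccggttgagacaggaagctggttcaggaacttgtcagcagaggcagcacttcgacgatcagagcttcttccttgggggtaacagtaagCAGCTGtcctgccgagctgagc
Procr: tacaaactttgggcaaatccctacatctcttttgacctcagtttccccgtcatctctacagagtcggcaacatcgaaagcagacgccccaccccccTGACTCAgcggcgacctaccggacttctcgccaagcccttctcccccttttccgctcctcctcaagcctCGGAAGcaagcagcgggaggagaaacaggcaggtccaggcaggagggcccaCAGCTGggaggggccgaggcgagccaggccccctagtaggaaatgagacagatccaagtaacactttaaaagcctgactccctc
Cd48: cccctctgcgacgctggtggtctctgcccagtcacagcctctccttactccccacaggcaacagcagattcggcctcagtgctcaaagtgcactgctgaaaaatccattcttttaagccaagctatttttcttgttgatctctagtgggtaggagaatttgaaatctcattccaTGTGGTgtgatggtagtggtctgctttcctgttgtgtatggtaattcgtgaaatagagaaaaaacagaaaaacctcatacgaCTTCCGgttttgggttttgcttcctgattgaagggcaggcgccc
Flt3: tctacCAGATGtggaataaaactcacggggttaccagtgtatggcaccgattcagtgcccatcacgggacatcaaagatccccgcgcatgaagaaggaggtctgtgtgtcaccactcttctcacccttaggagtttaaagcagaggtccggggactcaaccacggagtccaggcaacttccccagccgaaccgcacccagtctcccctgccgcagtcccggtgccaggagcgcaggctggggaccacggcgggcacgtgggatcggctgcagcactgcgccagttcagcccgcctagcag
The *Slamf1* window held 1 GATA and 2 E-box matches, and the *Procr* window held 1 AP-1, 1 ETS and 1 E-box match. The *Cd48* window held 1 ETS and 1 RUNX match, and the *Flt3* window 1 E-box match. Of 32851 windows of the same length, 7.81% held the AP-1 letters, 18.6% GATA, 16.9% ETS, 16.8% RUNX and 51.4% E-box. A window was found for 7 of the 9 genes.

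*Cd34*, which encodes a sialomucin of progenitor and endothelial cells, had the highest level per length in the controls. Normalized counts per kilobase of merged exons were 2234 ± 311 for *Cd34*, 1722 ± 271 for *Kit*, 1606 ± 694 for *Cd48* and 1547 ± 327 for *Cd27* (SD, n = 2). *Flt3* followed at 1232 ± 407 and *Ly6a* at 906 ± 325 per kilobase. The genes of the stem cell side were lowest, with *Procr* at 502 ± 188, *Thy1* at 163 ± 40.3 and *Slamf1* at 70.7 ± 27.4 per kilobase. Among neighbours in this order, only *Procr* and *Thy1* had ranges over the 4 libraries that did not meet, with a lowest *Procr* level of 251 and a highest *Thy1* level of 191 per kilobase. All other neighbours overlapped, and *Cd48* exceeded *Cd27* in 1 of the 4 libraries.

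*Kit* and *Ly6a*, whose proteins were used to sort the cells, did not separate the genotypes. *Kit* (ENSMUSG00000005672.12, chr5:75574916-75656722, plus strand, GRCm38) was at 17051 and 13634 in the controls and at 14852 and 15436 in the *Bptf* cKO. Both cKO values lay between the control values. The log2 difference, cKO minus control, was −0.010 (95% interval −0.35 to 0.33, adjusted p = 0.984, limma), and it was −0.20 within number 1 and 0.18 within number 2. *Ly6a* (ENSMUSG00000075602.10, chr15:74994877-74998031, minus strand) was at 815 and 1369 in the controls and at 726 and 1743 in the *Bptf* cKO. Here the replicate 2 libraries were the higher ones in both genotypes. The log2 difference was 0.091 (95% interval −1.08 to 1.26, adjusted p = 0.955, limma) and had the widest interval of the 9 genes. Reads of *Ly6a* are uncertain, since the counting may share or drop reads with near-identical *Ly6* paralogs.

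**Figure D1:**
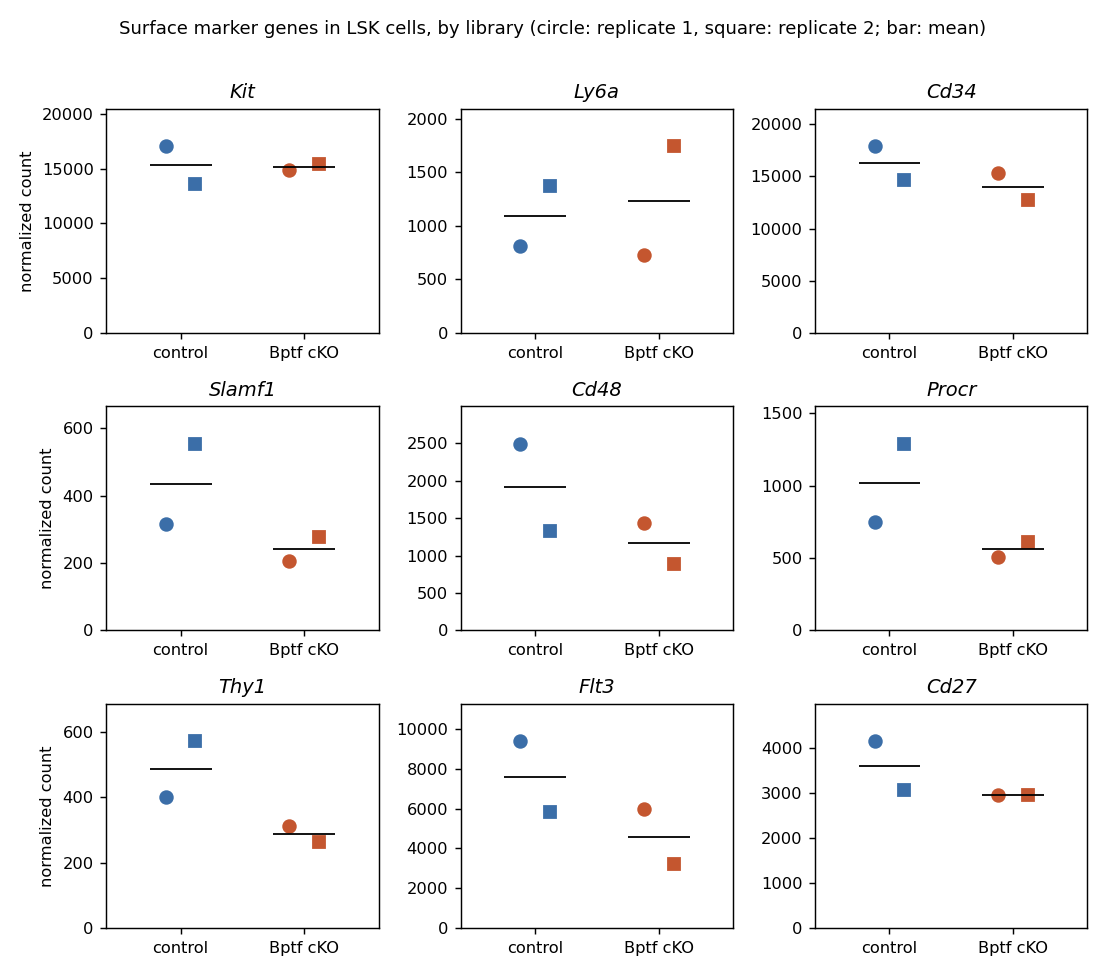
Normalized counts of the 9 surface marker genes in each of the 4 libraries, by genotype and replicate number, with the group means. *Slamf1*, *Procr*, *Thy1* and *Cd27* show cKO points below both control points, and the groups overlap for the other genes.

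*Slamf1*, *Procr* and *Thy1*, the genes of the stem cell side, had cKO means of 0.557, 0.551 and 0.592 times the control means. For each gene both cKO values were below both control values, as they were for 23.8% of tested genes. None passed the limma test with genotype as the only factor. With the replicate number as a block, limma gave adjusted p of 0.00755, 0.00229 and 0.0208, beside 14.4% of all genes called. In such a pool, fewer cells of a type and less RNA per cell cannot be told apart. *Slamf1* (ENSMUSG00000015316.11, chr1:171767127-171801184, plus strand), which encodes the SLAM family receptor CD150, was at 315 and 554 in the controls and at 207 and 278 in the *Bptf* cKO. The groups did not overlap, though the cKO library with the higher value came close to the lower control. The log2 difference was −0.80 (SE 0.32, 95% interval −1.61 to 0.0073, adjusted p = 0.320, limma), and it was −0.61 within number 1 and −0.99 within number 2. *Procr* (ENSMUSG00000027611.12, chr2:155751117-155755471, plus strand), the endothelial protein C receptor, was at 749.5 and 1289 in the controls and at 510.2 and 614 in the *Bptf* cKO. Again both cKO values were the lower ones, and the 2 controls lay farther apart than the 2 cKO libraries. The log2 difference was −0.81 (SE 0.28, 95% interval −1.51 to −0.11, adjusted p = 0.263, limma), with −0.55 and −1.07 within numbers 1 and 2. *Thy1* (ENSMUSG00000032011.5, chr9:44043384-44048579, plus strand), a GPI-anchored protein also found on T cells, was at 402 and 572 in the controls and at 314 and 262 in the *Bptf* cKO. It too did not overlap, with a log2 difference of −0.74 (SE 0.23, 95% interval −1.31 to −0.17, adjusted p = 0.228, limma) and differences of −0.35 and −1.12 within numbers 1 and 2. Without control replicate 2 the differences were −0.39 for *Slamf1*, −0.42 for *Procr* and −0.48 for *Thy1*, and without control replicate 1 they were −1.21, −1.20 and −0.99. These genes rest on the fewest reads, with 186 for *Thy1*, 197 for *Slamf1* and 435 for *Procr* in their lowest library.

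*Flt3* and *Cd48*, from the progenitor side, had differences of similar size, and their groups overlapped. *Cd34*, which also belongs to that side, differed less, by −0.21, and is described below. *Flt3* (ENSMUSG00000042817.15, chr5:147330741-147400489, minus strand) was at 9391 and 5832 in the controls and at 5960.4 and 3214 in the *Bptf* cKO. The replicate 1 cKO library therefore lay just above the replicate 2 control. The log2 difference was −0.76 (SE 0.36, 95% interval −1.66 to 0.14, adjusted p = 0.395, limma), with −0.66 and −0.86 within numbers 1 and 2. *Cd48* (ENSMUSG00000015355.13, chr1:171682009-171705258, plus strand), a GPI-anchored SLAM family protein, was at 2493 and 1326 in the controls and at 1434 and 889 in the *Bptf* cKO. Its log2 difference was −0.69 (SE 0.36, 95% interval −1.61 to 0.23, adjusted p = 0.448, limma), with −0.80 and −0.58 within the numbers. When 1 library was left out, the difference ranged from −1.20 without cKO replicate 1 to −0.31 without cKO replicate 2 for *Flt3*, and from −1.14 without control replicate 2 to −0.23 without control replicate 1 for *Cd48*. For both genes the replicate 2 libraries were below the replicate 1 libraries, whichever the genotype. With the replicate number as a block, limma gave adjusted p of 2.03e-04 for *Flt3* and 9.01e-04 for *Cd48*, beside 14.4% of all genes called.

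*Cd34* and *Cd27* differed less. *Cd34* (ENSMUSG00000016494.9, chr1:194938819-194961279, plus strand) was at 17892 and 14681 in the controls and at 15324 and 12749 in the *Bptf* cKO, with overlapping groups. The log2 difference was −0.21 (SE 0.15, 95% interval −0.59 to 0.16, adjusted p = 0.561, limma), with −0.22 and −0.20 within numbers 1 and 2. It ranged from −0.36 without control replicate 2 to −0.071 without control replicate 1. *Cd27* (ENSMUSG00000030336.14, chr6:125232622-125237010, minus strand) was at 4141 and 3064 in the controls and at 2953 and 2945 in the *Bptf* cKO. The cKO libraries lay just below the lower control, and the log2 difference was −0.27 (SE 0.16, 95% interval −0.68 to 0.13, adjusted p = 0.485, limma). It was −0.49 within number 1 and −0.057 within number 2, and it ranged from −0.49 without control replicate 2 to −0.055 without control replicate 1. Reads on 148 exon bases of *Cd34*, 2.03% of its exons, overlap *Gm16897* on the other strand. Since the strand of counting was not given, these cannot be assigned.

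**Figure D2:**
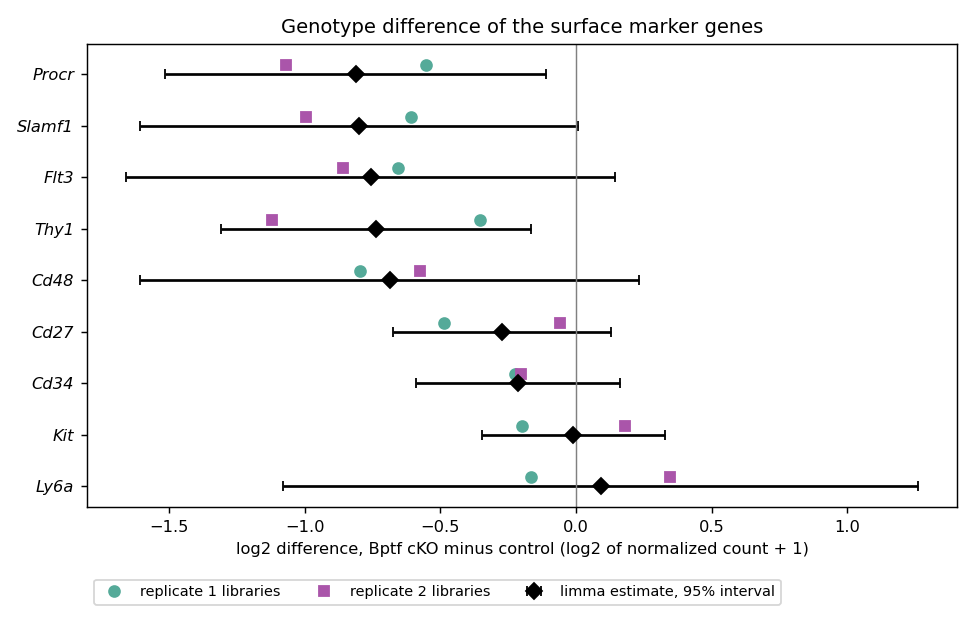
Log2 difference, *Bptf* cKO minus control, of each gene on the scale of log2(normalized count + 1). Diamonds and bars are the limma estimate and its 95% interval, circles and squares the difference within replicate numbers 1 and 2. The intervals of *Procr* and *Thy1* lie below 0, and those of the other 7 genes include 0.

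In all, 0 of the 9 genes passed an adjusted p of 0.05 in the limma fit with genotype as the only factor. That fit covered 14858 genes and called 0.74% of them, 55 higher and 55 lower. With the replicate number as a block, limma called *Slamf1*, *Cd48*, *Procr*, *Thy1* and *Flt3*, beside 14.4% of all genes. On whole reads with genotype as the only factor, edgeR called 0 of the 9 beside 0.633% of all genes, and DESeq2 called 0 of the 9 beside 5.51%. At an unadjusted p under 0.05 limma named *Procr* and *Thy1*, beside 15.7% of all tested genes. edgeR named 3 of the 9, also beside 15.7%, and DESeq2 4 of the 9 beside 14.1%. *Slamf1*, *Procr*, *Thy1* and *Cd27* were lower in both cKO libraries than in both controls, 4 of 9 against 23.8% of tested genes, and 0 of 9 were higher, against 23.2%. Within both replicate numbers, 7 of 9 were lower in the cKO, against 34.4% of tested genes. The median log2 difference of the 9 genes was −0.69, with 8 below 0, and that of all tested genes was 0.0010. With 2 libraries a group an exact permutation test cannot go below p = 0.333. All p-values measure the spread between these libraries of pooled mice only.

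For several genes, libraries of 1 genotype differed from each other by as much as the genotypes did. *Cd48* was lower in replicate 2 than in replicate 1 by a log2 difference of −0.91 in the controls and −0.69 in the *Bptf* cKO, and *Flt3* by −0.69 and −0.89. *Slamf1* went the other way, with 0.81 and 0.43, as did *Procr*, with 0.78 and 0.27. *Thy1* was higher in replicate 2 of the controls, by 0.51, and lower in replicate 2 of the cKO, by −0.26. Both replicate 2 libraries were above both replicate 1 libraries for *Ly6a* alone among the 9 genes, against 19.2% of tested genes. They were below for *Cd34*, *Cd48* and *Flt3*, 3 of 9, also against 19.2%.

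The ratio of *Slamf1* to *Cd48*, the genes of the CD150 and CD48 gates, was compared within libraries because such a ratio does not depend on the size factor. It was 0.127 and 0.418 in the controls and 0.144 and 0.313 in the *Bptf* cKO, so the libraries fell together by replicate number. On the log2 scale the ratio was −2.12 ± 1.22 in the controls and −2.24 ± 0.79 in the cKO (SD, n = 2), a difference of −0.12 (exact permutation test, two-sided, p = 1). Within number 1 the difference was 0.19 and within number 2 it was −0.42, opposite in sign. Replicate 2 exceeded replicate 1 by 1.72 in the controls and 1.12 in the cKO. The log2 ratio of *Kit* to *Ly6a* was 3.85 ± 0.76 in the controls and 3.75 ± 0.85 in the cKO (SD, n = 2), a difference of −0.10 (exact permutation test, two-sided, p = 0.667), with −0.033 and −0.17 within numbers 1 and 2. These ratios are not scaled by length, so only their differences between libraries can be read.

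**Figure D3:**
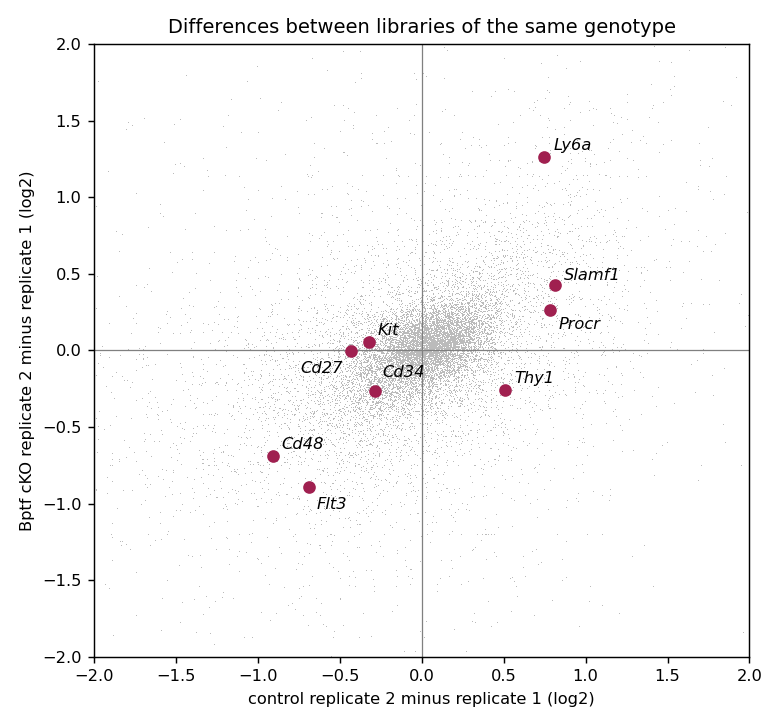
Log2 difference of replicate 2 minus replicate 1 in the controls (horizontal axis) and in the *Bptf* cKO (vertical axis). Large points are the 9 genes and small grey points other tested genes within the axis limits. *Cd48* and *Flt3* lie below 0 on both axes, and *Ly6a*, *Slamf1* and *Procr* above 0.

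The ligands, adaptors and relatives of the 9 proteins were described from lists by family. These lists also hold some of the 9 genes, among them *Slamf1*, *Cd48*, *Thy1*, *Cd34* and *Procr*, so medians include their values. Of the class III receptor tyrosine kinases and their ligands, 8 genes were tested and 0 called, with a median log2 difference of −0.016. *Csf1r*, the macrophage growth factor receptor, was at 598 and 137 in the controls and at 101 and 155 in the cKO. Its log2 difference of −1.19 (adjusted p = 0.489, limma) was −0.13 without control replicate 1 and −2.25 without control replicate 2. *Flt3l*, the ligand of FLT3, was at 379 and 259 in the controls and at 451 and 360 in the cKO. Its log2 difference of 0.36 (adjusted p = 0.547, limma) ranged from 0.088 to 0.63 when 1 library was left out. Of 27 genes of KIT and FLT3 signalling 0 were called, with a median of −0.042. *Gab1*, a docking adaptor, was at 657 and 614 in the controls and at 317 and 284 in the cKO, a log2 difference of −1.08 (adjusted p = 0.057, limma). *Socs3*, a feedback inhibitor of cytokine receptors, had −1.41 (adjusted p = 0.132, limma). The largest rises were *Gab2*, with 0.40 (adjusted p = 0.200, limma), and *Sos1*, with 0.36 (adjusted p = 0.187, limma). In both cKO libraries 6 of the 27 were below both controls, against 23.8% of tested genes, and 5 were above, against 23.2%.

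Among 10 tested SLAM receptors and adaptors, 1 rose and none fell, against 0.74% of all tested genes called. The median log2 difference was −0.32, with *Slamf1* and *Cd48* in the list. The gene that rose was *Slamf9*, a SLAM family receptor without tyrosine signalling motifs, at 4.65 and 2.77 in the controls and at 79.9 and 73.4 in the cKO (log2 difference 4.07, SE 0.48, adjusted p = 0.0439, limma). Its control values rest on very few reads, 2 in control replicate 2, and the call was lost without control replicate 2 (adjusted p = 0.0723), without cKO replicate 1 (0.228) and without cKO replicate 2 (0.296, all limma). *Cd244*, a receptor for CD48, was at 584 and 309 in the controls and at 808 and 699.8 in the cKO (0.82, adjusted p = 0.304, limma). *Slamf9* and *Cd244* were picked as the largest rises of this list and *Slamf1* and *Cd48* as its largest falls. Their opposite signs follow from that choice.

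Of 11 tested LY6 and THY1-type genes, *Thy1* among them, 0 were called, with a median of 0.13. *Ly6c2*, a monocyte-associated relative, had 1.15 (adjusted p = 0.252, limma). Of 4 genes listed around CD34, 0 were called, with a median of 0.13, *Cd34* included. *Podxl*, a sialomucin related to CD34, had −0.77 (adjusted p = 0.328, limma). *Podxl2*, of the same list, had 0.65 (adjusted p = 0.634, limma). Of 11 tested genes around CD27 and the TNF receptors 0 were called, with a median of −0.098. Of 5 tested genes of the protein C system, in which EPCR acts, 0 were called, with a median of −0.41, *Procr* included.

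Of 30 other surface markers used to gate LSK subsets, 2 fell and none rose, against 0.74% of all tested genes called. Both cKO values were below both control values for 11 of the 30, against 23.8% of tested genes, and above them for 7, against 23.2%. *Robo4*, a guidance receptor of stem cells and endothelium, was at 1036 and 1166 in the controls and at 369 and 315 in the cKO (log2 difference −1.69, SE 0.15, adjusted p = 0.0232, limma). Both cKO values were far below the control values. The call was lost without cKO replicate 1 (adjusted p = 0.120), without cKO replicate 2 (0.186) and without control replicate 2 (0.0659, all limma). *Esam*, an adhesion molecule of stem cells and endothelium, was at 944 and 1558 in the controls and at 441 and 464 in the cKO (−1.42, adjusted p = 0.0891, limma). Among the markers with a positive difference, *Il1rl1*, an interleukin 33 receptor also found on mast cells, was at 228 and 108 in the controls and at 320.4 and 1079 in the cKO (1.90, adjusted p = 0.262, limma). Endothelial markers summed to 421 and 639 in the controls and 413 and 492 in the cKO, and their part in *Robo4* and *Esam* was not tested.

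**Figure D4:**
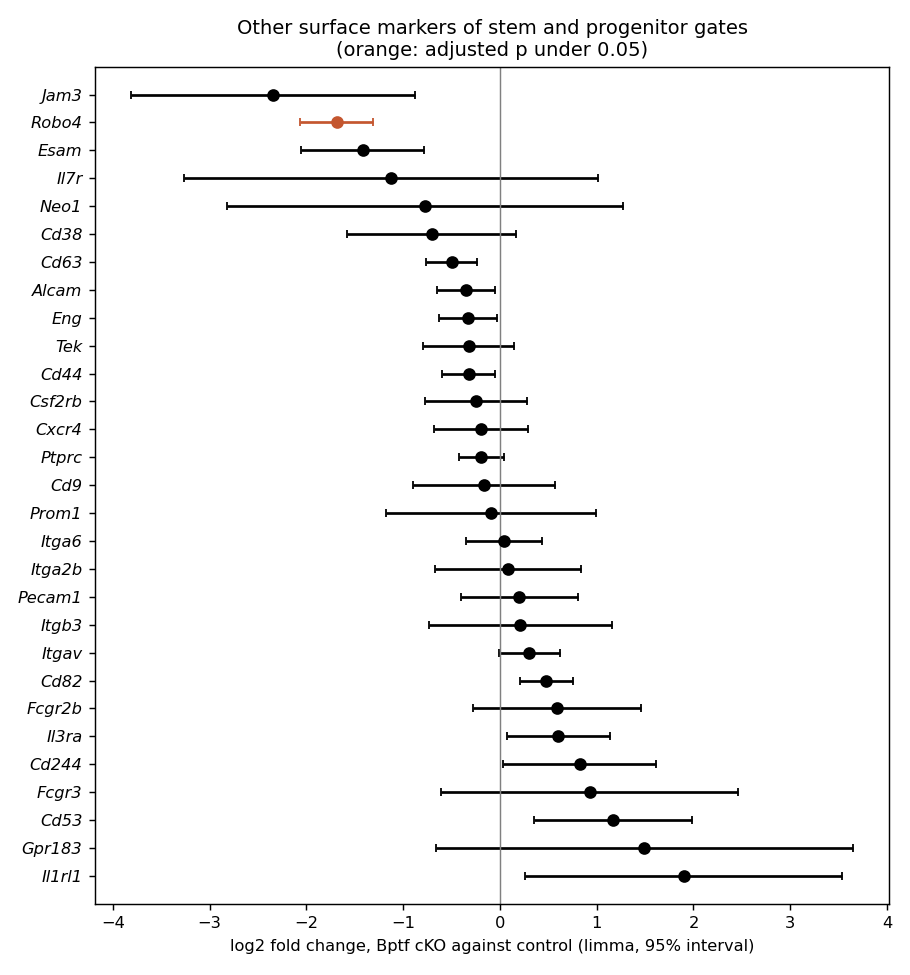
Log2 difference, *Bptf* cKO minus control, of 29 other surface markers used to gate LSK subsets, on the scale of log2(normalized count + 1). Points are limma estimates and bars their 95% intervals. *Robo4*, in orange, passed the test and was lower in the *Bptf* cKO.

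Genes enriched in the subsets that these markers separate gave a wider view. Of 20 genes enriched in stem cells 3 fell and none rose, against 0.74% of all tested genes called. Of the 20, 18 had a log2 difference below 0, against 7400 of all 14858 tested genes, with a median of −0.52. *Ifitm1*, an interferon-inducible membrane protein, was at 3769 and 3602 in the controls and at 1245 and 1007 in the cKO (−1.72, adjusted p = 0.0204, limma). *Pdzk1ip1* was at 627 and 621 in the controls and at 279.5 and 286 in the cKO (−1.14, adjusted p = 0.0444, limma). The *Ifitm1* call was lost without either cKO library (adjusted p of 0.0688 without replicate 1 and 0.134 without replicate 2, limma), and the *Pdzk1ip1* call without any 1 library (adjusted p from 0.0928 to 0.316, limma). Of 16 lymphoid-primed genes 0 were called, but all 16 had a difference below 0, against the same 7400 of 14858, with a median of −0.65. *Dntt*, the terminal transferase of lymphoid progenitors, was at 7907 and 2692 in the controls and at 1658 and 584 in the cKO (−2.23, adjusted p = 0.221, limma). Of 14 myeloid-primed genes 0 were called, with a median of 0.57. Both cKO values were above both control values for 3 of the 14, against 23.2% of tested genes. They were below for 1, against 23.8%. Control replicate 2 stood apart for this list, whose summed level was 51118 and 16001 in the controls and 56099 and 51378 in the cKO. *Ctsg*, a granule protease, was at 2652 and 674 in the controls and at 10040 and 9445 in the cKO (2.86, adjusted p = 0.128, limma). Of 15 megakaryocyte and erythroid genes 1 fell and none rose, against 0.74% of all tested genes called. It was *Epor*, the erythropoietin receptor, at 326 and 255 in the controls and at 77.3 and 69.1 in the cKO (−1.96, adjusted p = 0.0443, limma). The *Epor* call was lost without any 1 library, with adjusted p from 0.0847 to 0.299 (limma). Erythroid markers summed to 318 and 693 in the controls and to 79.3 and 224 in the cKO, and the part of erythroid cells in *Epor* was not tested.

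**Figure D5:**
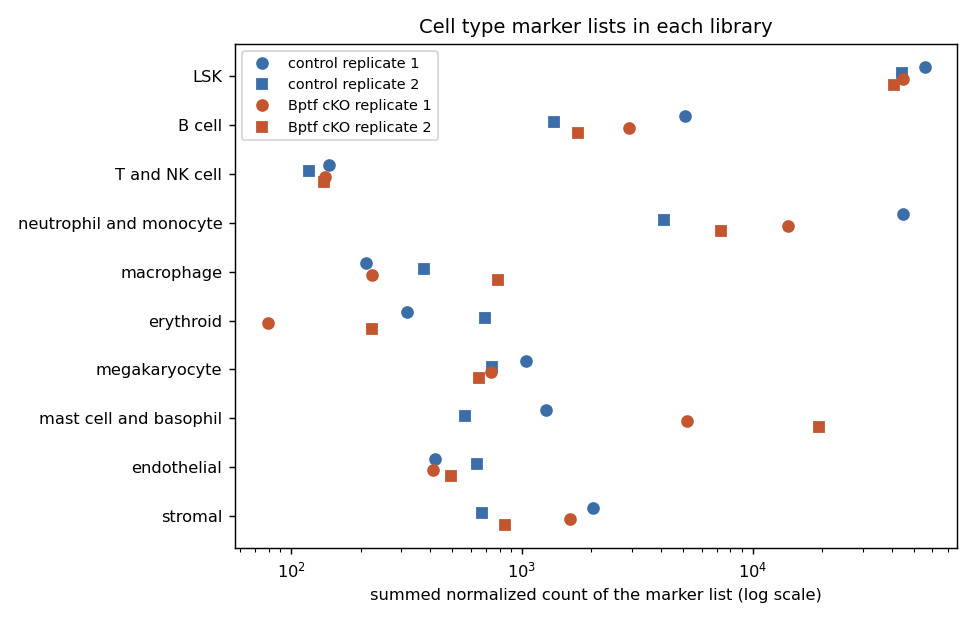
Summed normalized counts of marker genes of LSK cells and of other cell types in each library, on a log axis. LSK markers lie between 40780 and 55542 in the 4 libraries, and for mast cell and basophil markers both *Bptf* cKO points lie above both control points.

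LSK markers summed to 55542 and 44475 in the controls and to 44871 and 40780 in the *Bptf* cKO. Apart from *Ptprc*, that list holds only genes described above (*Kit*, *Ly6a*, *Cd34*, *Flt3*, *Cd48* and *Slamf1*). Its sum is therefore no separate check of cell identity. The sort left out cells with lineage markers, a gate that would remove mature B, T, myeloid and erythroid cells. Markers of other cells were nevertheless present in the RNA and differed between libraries, and control replicate 1, which had the highest *Cd48* and *Flt3*, also had the highest sums for B cell, neutrophil and monocyte, megakaryocyte and stromal markers. Their part in the *Cd48* and *Flt3* values was not tested. Neutrophil and monocyte markers summed to 44754 and 4132 in the controls and to 14284 and 7276 in the cKO, led by *Ngp*, a granule protein, at 13533 and 996.5 in the controls and at 3521 and 1768 in the cKO. B cell markers summed to 5097 and 1383 in the controls and to 2911 and 1758 in the cKO. Mast cell and basophil markers summed to 1277 and 568 in the controls and to 5206 and 19461 in the cKO, and 5 of the 6 were higher in both cKO libraries than in both controls, against 23.2% of tested genes, with 0 of 6 called. *Cpa3*, a mast cell protease, was at 855 and 244 in the controls and at 3645 and 9868 in the cKO. Mast cells carry c-KIT, and the part of these cells in the *Kit* and *Il1rl1* values was not tested. T and NK cell markers summed to between 119 and 146, with no row for *Cd3e*, *Cd3g*, *Cd8a* and *Ncr1*, and their part in *Thy1* was not tested. Macrophage markers summed to between 211 and 784, megakaryocyte markers to between 649 and 1043 and stromal markers to between 672 and 2036.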

How the data were processed

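Sorted LSK cells of 2 control and 2 *Bptf* cKO libraries were profiled by RNA sequencing. Per the labels, the submitters' processing notes name HISAT2, featureCounts, DESeq2 and the builds GRCm38 and mm10; versions, annotation and strand setting are not given in the sources used here. The deposited signal values are counts that the authors divided by 1 size factor per library. Every value was a whole multiple of 1 step per library (100% within a tolerance of 0.01), so whole reads were recovered. The authors' columns of log2 fold changes, of standard errors and test statistics (score) and of p-values were deposited too and were not used. Listed genes had at least 11 reads over the 4 libraries.

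log2(normalized count + 1) was fitted with limma 3.58.1 (mean-variance trend, genotype only, two-sided, Benjamini-Hochberg) over 14858 genes with a mean of at least 10. A gene was called at an adjusted p under 0.05. Fold changes on this scale understate those of low genes. edgeR 4.0.16 and DESeq2 1.42.0 on the recovered reads were alternatives. The fits were tested on simulated data. Exon lengths and positions came from GENCODE M21. Named genes were the 9 genes, *Bptf*, and in each list the called genes and the 2 largest rises and falls, of which those that help describe the list are printed. The members and lists were chosen with earlier results of these data known. Some genes that the rule selects are not reported here.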

Additional observations from a re-analysis of the deposited data

How the results depend on the processing

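Of the alternatives to the fit, the replicate number as a block changed the results for the surface marker genes most. The labels give same-numbered libraries no shared origin. The deviations of same-numbered libraries from their group means correlated at 0.452 over 14858 genes, a hint from 2 pairs only. With the replicate block, limma called 5 of the 9 genes, *Slamf1* (adjusted p = 0.00755), *Cd48* (9.01e-04), *Procr* (0.00229), *Thy1* (0.0208) and *Flt3* (2.03e-04), against 14.4% of all genes, with 896 genes higher and 1242 lower. edgeR with the replicate block called 5 of the 9 against 14.3%, with 891 higher and 1229 lower, and DESeq2 with the replicate block called 3, *Cd48*, *Procr* and *Flt3*, against 6.34%, with 382 higher and 560 lower. DESeq2 without the block called 319 genes higher and 500 lower, and limma without the trend 2 and 0. Leaving out 1 library each gave 1 to 76 genes higher, 0 to 41 lower and 0 to 0 of the 9 genes, where the lone library is assumed to vary like the other group.

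The log2 difference of *Kit* reversed to 0.041 with libraries recentred on their medians and to 0.18 in the replicate 2 libraries alone, and ranged from −0.17 to 0.15 when 1 library was left out. That of *Ly6a* was −0.17 in the replicate 1 libraries alone and ranged from −0.54 to 0.72 without 1 library. The ranges without 1 library also crossed 0 for *Csf1* (−0.10 to 0.68), *F2rl2* (−0.11 to 1.28), *Itga2b* (−0.37 to 0.54), *Tfrc* (−0.24 to 0.47) and *Traf2* (−0.039 to 0.23). The genotype difference of the log2 ratio of *Slamf1* to *Cd48* ranged from −0.98 to 0.75 and that of *Kit* to *Ly6a* from −0.70 to 0.50 without 1 library. The cause was not tested. Over 15 alternatives *Robo4* was called in 11, *Ifitm1* in 12, *Epor* in 9 *Pdzk1ip1* and *Bptf* in 8, and *Slamf9* in 10 of 14.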

Other observations

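Immediate-early genes, transcription factors and mRNA regulators induced within minutes of a stimulus or of cell handling, were counted as a list. Of 14 tested, 1 fell and none rose, against 0.74% of all genes called. Of the 14, 13 had a log2 difference below 0, against 7400 of all 14858 tested genes. Both cKO values were below both control values for 11, against 23.8% of all tested genes. The median log2 difference was −1.30. The gene that fell was *Zfp36*, which encodes an mRNA decay factor, with a log2 difference of −1.99 (adjusted p = 0.0368, limma). Of 20 interferon-stimulated genes, which pIpC induces, 0 were called, with a median of −0.28. In both cKO libraries 12 were lower than in both controls, against 23.8% of all tested genes. Only 1 was higher, against 23.2%. *Mx1*, an antiviral GTPase whose promoter drives the cre, had a log2 difference of −1.27 (adjusted p = 0.126, limma). *Ly6a* is itself inducible by interferon, and the part of that response in its values was not tested.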
